A study of Mus musculus with 18 samples.

Results

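Heat shock proteins and their DnaJ (J protein) cochaperones were examined in cell lines from mouse malignant peripheral nerve sheath tumors (MPNSTs), sarcomas that arise from nerve. The 73 members are the genes whose names begin with Hspa, Hspb, Hspd, Hspe, Hsph, Hsp90 or Dnaj followed by a digit or the letters a to c, out of 35275 genes in the read-count table. A further 8 genes of such names are listed as pseudogenes and were left out. By the place where their proteins work, 46 members were set down as cytosolic or nuclear, 13 as endoplasmic reticulum (ER) and 10 as mitochondrial, and 4 (*Hspb11*, *Hspbap1*, *Dnajc22* and *Dnajc25*) were left unassigned.

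RNA was sequenced from 6 untreated lines, each grown from its own tumor, with 3 cultures of each line and so 18 libraries. The tumors were raised in 129 Sv/Jae mice by injecting the sciatic nerve with an adenovirus that carried Cas9, driven by the CMV promoter, and guide RNAs. In 3 lines the guides deleted *Nf1*, which encodes the RAS regulator neurofibromin, and p53 (*Nf1*/*p53* dKO). In the other 3 lines they deleted *Nf1* and *Cdkn2a*, the locus of p16 and p19ARF (*Nf1*/*Cdkn2a* dKO), so both genotypes lack *Nf1*, no line with *Nf1* intact was compared, and a line stands for 1 tumor.

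HSP70 proteins bind exposed stretches of unfolded proteins in cycles driven by ATP, and J proteins bring them their substrates and start the ATP step. HSP90 proteins finish the folding of signaling clients, small heat shock proteins hold unfolded proteins in solution, and the HSP60/HSP10 chamber folds proteins in mitochondria. Each compartment has its own set. Several cytosolic genes, and *Hspd1* and *Hspe1* of mitochondria, answer to heat shock factor 1 (HSF1). Many ER genes answer to the unfolded protein response through an ER stress response element in their promoters.

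Promoter windows of RefSeq (assembly GRCm38.p6), each running from 250 bases before a transcript start to 50 bases after it, were found for 59 of the 73 members. The ER stress response element was searched as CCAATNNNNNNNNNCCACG, and on the other strand as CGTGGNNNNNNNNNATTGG. It was present in the windows of 3 of the 11 ER members with a window (*Hspa5*, *Hsp90b1* and *Dnajc3*) and of no other member. These are 3 of the 76 windows of the members, against 39 of 32851 windows of all genes (0.119%). The 250 bases before the start are given below for these genes, 5′ to 3′, because the ER members had the largest median difference between the genotypes of the compartments. Capitals mark the element, which begins 65 bases before the start of *Hspa5* and 105 before that of *Dnajc3*, and stands 212 and 107 bases before that of *Hsp90b1*, the second time on the other strand.
Hspa5, chr2:34771840-34772089, plus strand: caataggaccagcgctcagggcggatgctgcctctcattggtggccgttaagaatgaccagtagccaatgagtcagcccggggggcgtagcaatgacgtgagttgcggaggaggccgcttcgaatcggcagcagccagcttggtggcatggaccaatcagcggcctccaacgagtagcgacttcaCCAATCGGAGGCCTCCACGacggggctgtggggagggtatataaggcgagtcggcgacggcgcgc
Hsp90b1, chr10:86705445-86705694, minus strand: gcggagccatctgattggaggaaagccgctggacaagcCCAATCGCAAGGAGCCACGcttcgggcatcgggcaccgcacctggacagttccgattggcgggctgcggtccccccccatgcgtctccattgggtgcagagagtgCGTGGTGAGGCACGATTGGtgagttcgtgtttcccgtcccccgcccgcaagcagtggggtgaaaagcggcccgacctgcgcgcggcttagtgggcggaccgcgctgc
Dnajc3, chr14:118937682-118937931, plus strand: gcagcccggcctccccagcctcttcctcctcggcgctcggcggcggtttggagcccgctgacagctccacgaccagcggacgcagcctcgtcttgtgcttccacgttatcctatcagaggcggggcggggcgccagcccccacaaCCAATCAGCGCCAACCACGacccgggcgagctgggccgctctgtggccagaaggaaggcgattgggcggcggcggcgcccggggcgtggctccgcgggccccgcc

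A heat shock element is made of GAA units in alternating direction. A pair of units, searched as GAANNTTC or TTCNNGAA, was present in 18 of the 76 windows of the members, those of 16 genes, and in 15.1% of all windows. A run of 3 units (GAANNTTCNNGAA or TTCNNGAANNTTC, made of overlapping pairs) was present in 6 of the 76, those of *Hsph1*, *Dnajb6*, *Hspd1* and *Hspe1*, and in 0.603% of all windows. *Hspd1* and *Hspe1* stand head to head on chromosome 1. The window of *Hspe1* shares the same element with the *Hspd1* window at 55087883 to 55088182. A further *Hspd1* window, at 55088194 to 55088493, holds no pair and no run. The stretches of *Hspe1* and *Hspa1b* are given below, with capitals for the pairs, to set a mitochondrial and an inducible cytosolic promoter beside the ER ones.
Hspe1, chr1:55087898-55088147, plus strand: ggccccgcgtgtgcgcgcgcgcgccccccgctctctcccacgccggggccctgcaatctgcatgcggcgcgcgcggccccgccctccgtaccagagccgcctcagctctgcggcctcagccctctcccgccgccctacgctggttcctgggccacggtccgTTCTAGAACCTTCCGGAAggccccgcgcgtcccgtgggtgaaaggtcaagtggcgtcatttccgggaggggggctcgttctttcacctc
Hspa1b, chr17:34959239-34959488, minus strand: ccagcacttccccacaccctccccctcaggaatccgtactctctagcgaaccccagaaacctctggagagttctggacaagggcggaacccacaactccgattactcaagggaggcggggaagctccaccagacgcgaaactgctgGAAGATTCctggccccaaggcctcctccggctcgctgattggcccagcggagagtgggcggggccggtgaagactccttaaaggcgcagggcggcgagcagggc
A match says only that these letters are in the window, and binding was not measured.

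Levels below are CPM, the counts summed over the cultures of a line and brought to a common library size with TMM scaling, given in the order of line 1, 2 and 3. Log2 fold changes with standard errors are *Nf1*/*Cdkn2a* dKO over *Nf1*/*p53* dKO, 3 lines against 3, from the quasi-likelihood test of edgeR, and a gene is called at an adjusted p under 0.05 over all genes tested. Library totals were 19560535 to 28312207 counts, and line sums 65206479 to 73065228. Of the targeted genes, *Trp53* was at 58.7 to 94.1 CPM in the lines labelled *Nf1*/*p53* dKO and at 185 to 247 in the others, while *Cdkn2a* was at 42.9 to 363 and 169 to 392 CPM and *Nf1* at 27.7 to 70.0 and 12.7 to 38.3, so counts of RNA bear out the p53 label and do not check the deletion of *Cdkn2a* or *Nf1*. The label of the cells is mesenchymal, and *Vim* was at 4730 to 10200 CPM and *Col1a1* at 302 to 4170. The Schwann cell gene *Sox10* stayed at or under 0.099 CPM, the 5 leukocyte markers summed to 2.24 to 7.41 CPM per line and the 4 endothelial markers to 0.641 to 2.02. Of the 4 epithelial markers, the keratin genes *Krt8*, at 0.484 to 601 CPM, and *Krt18*, at 0.747 to 199, varied between lines of either genotype. *Epcam* stayed at or under 0.764 CPM and *Cdh1* at or under 1.26. In these bulk libraries, fewer cells that express a gene and less RNA per cell cannot be told apart.

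Among the 66 members with enough counts to be tested, 1 was called between the genotypes, against 1.8% of all genes tested. At an unadjusted p under 0.05 there were 14 members (21.2%), against 22.4% of all genes. For 18 members no line of a genotype lay within the range of the other (27.3%), against 31.4% of all genes. As a whole the members stood at or under the background, 31 of them higher and 35 lower in *Nf1*/*Cdkn2a* dKO, and the log2 fold changes had a median of -0.00, beside -0.02 over all genes. When the libraries were scaled by raw totals, the median of all genes moved to -0.16 and that of the members to -0.14, with 26 members higher.

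The compartments were then taken apart. Of the 13 ER members 12 were higher in *Nf1*/*Cdkn2a* dKO, with a median of 0.55. At an unadjusted p under 0.05 there were 7 (53.8%), all of them higher, against 22.4% of all genes. Of the 40 cytosolic and nuclear members tested 14 were higher (median -0.13), and of the 10 mitochondrial members 4 (median -0.03). At that p there were 4 cytosolic (10.0%) and 3 mitochondrial members (30.0%). With raw totals the medians were 0.41 for the ER, -0.26 for the cytosol and -0.16 for mitochondria, and 10 of the 13 ER members were higher. No ER or mitochondrial member passed the adjusted threshold. The 18 members without overlap between the genotypes were 6 in the ER, 7 in the cytosol, 4 in mitochondria and 1 unassigned, *Hspb11*, a protein of transport in cilia, at 6.15, 6.56 and 5.69 CPM against 9.53, 7.24 and 9.04 (log2 fold change 0.49 ± 0.23, adjusted p = 0.277).

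**Figure D1:**
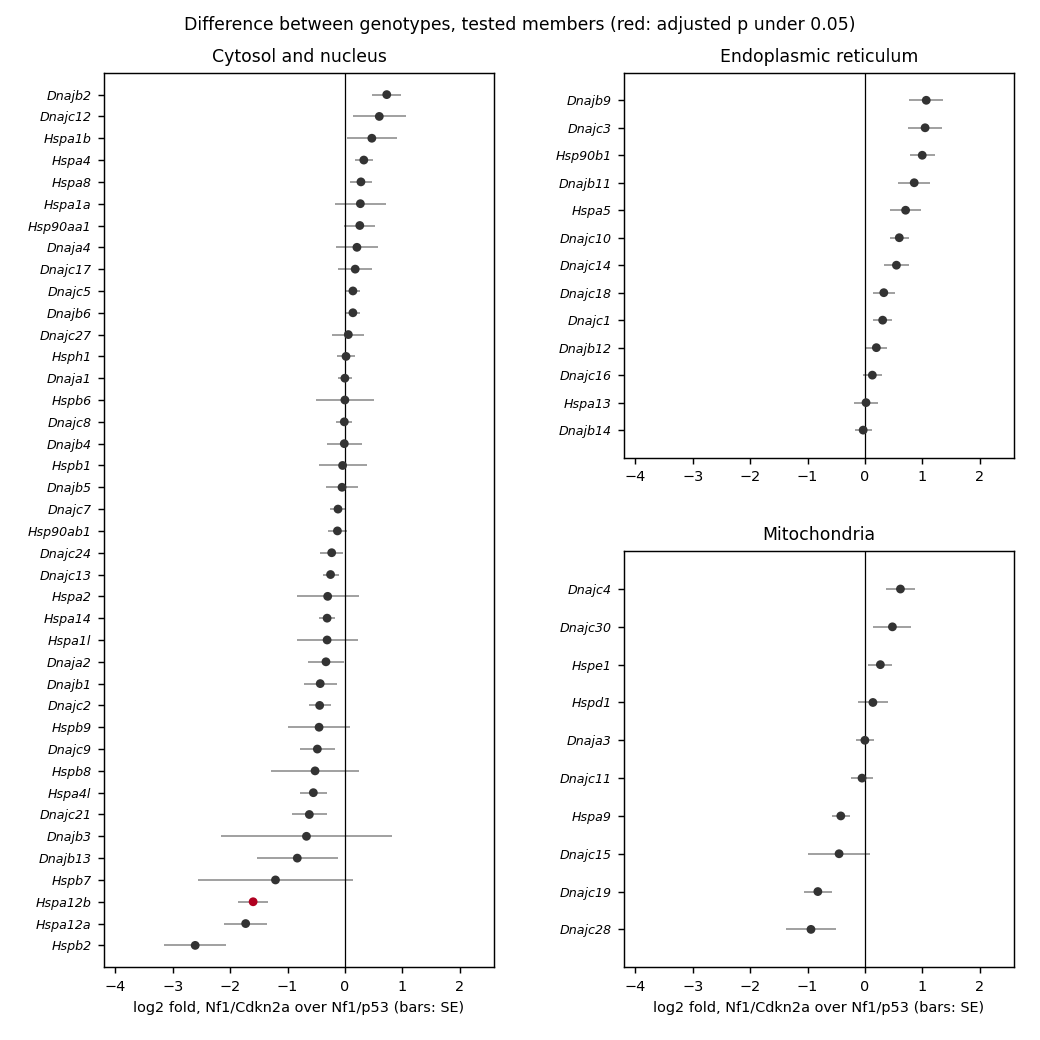
Log2 fold change between the genotypes (x axis, bars are standard errors) of the 66 tested members other than the 3 unassigned ones, each a point, by compartment. The ER panel lies to the right of 0 for 12 of 13 members, and the single red point, *Hspa12b* at -1.60, is the called member.

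The share of the members' counts that came from each compartment was computed within each line. ER members took 13.9, 17.0 and 13.1% of it in *Nf1*/*p53* dKO and 20.3, 23.0 and 24.5% in *Nf1*/*Cdkn2a* dKO. Mitochondrial members took 15.5, 15.7 and 15.6% against 13.3, 13.9 and 12.8%, and cytosolic members 70.3, 66.9 and 71.0% against 66.1, 62.8 and 62.5%. The lines of the genotypes were apart in all of these shares, which add to a whole and so are not independent. The 7 most abundant members (*Hsp90ab1*, *Hspa8*, *Hsp90aa1*, *Hspd1*, *Hspa5*, *Hsp90b1* and *Hspa9*) held 65.7 to 72.7% of the counts in each line. The shares therefore follow mostly these genes and not the compartments as a whole. The total over all members was 13900 to 16200 CPM in *Nf1*/*p53* dKO and 15200 to 17800 in *Nf1*/*Cdkn2a* dKO, which overlap.

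**Figure D2:**
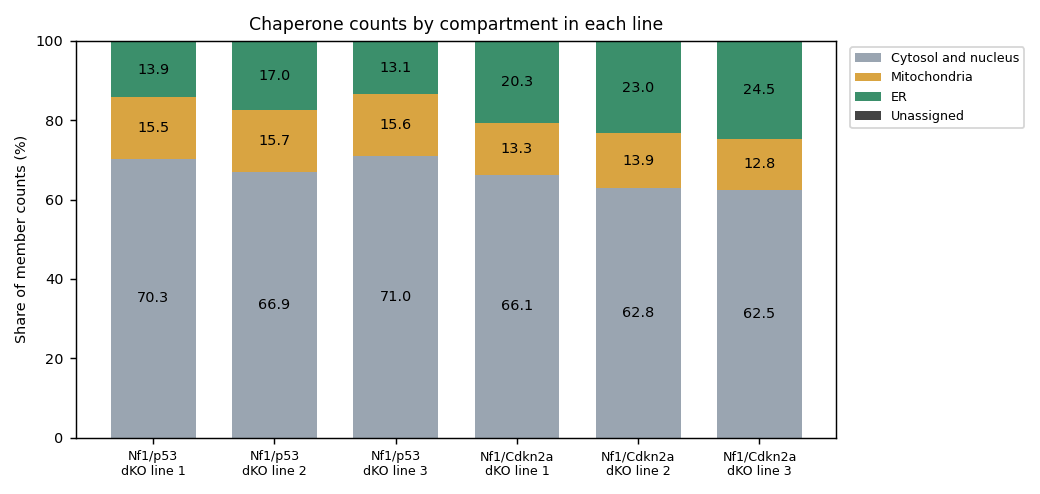
Share of the summed CPM of all members (y axis, percent) from each compartment in each of the 6 lines, as stacked bars; the unassigned members take at most 0.341% and are hardly visible. The ER share is 13.1 to 17.0% in the *Nf1*/*p53* dKO lines and 20.3 to 24.5% in the *Nf1*/*Cdkn2a* dKO lines.

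In the ER, *Hsp90b1* encodes GRP94, the HSP90 of the ER lumen. It was at 568, 783 and 512 CPM in *Nf1*/*p53* dKO and at 1070, 1200 and 1460 in *Nf1*/*Cdkn2a* dKO. All 9 *Nf1*/*Cdkn2a* dKO cultures were above all 9 of the other genotype, and the log2 fold change was 1.00 ± 0.22 (adjusted p = 0.069). The gene overlaps Gm15344 on its own strand and 1810014B01Rik on the other. *Hspa5*, which encodes BiP, the HSP70 of the ER and the protein that holds the stress sensors inactive, was at 783, 1110 and 652 CPM against 1280, 1770 and 1110. Line 3 of *Nf1*/*Cdkn2a* dKO stood at about the level of line 2 of *Nf1*/*p53* dKO, so the genotypes met, and the log2 fold change was 0.71 ± 0.27 (adjusted p = 0.189). The third of the ER members in these families, *Hspa13* (STCH), was at 81.6, 96.9 and 56.2 CPM against 83.3, 79.0 and 75.5, and its 95% interval of the log2 fold change was -0.49 to 0.52.

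Among the ER members, *Dnajb9* and *Dnajc3* had the highest log2 fold changes. *Dnajb9* (ERdj4), which brings BiP to the sensor IRE1 and to proteins bound for degradation, was at 33.7, 24.1 and 14.7 CPM against 47.5, 54.3 and 50.4 (log2 fold change 1.07 ± 0.30, adjusted p = 0.109). *Dnajc3* (p58IPK), known as an inhibitor of the kinase PERK and a cochaperone of BiP, was at 62.6, 143 and 109 CPM against 210, 223 and 219 (1.05 ± 0.29, adjusted p = 0.107). Within each gene the *Nf1*/*Cdkn2a* dKO lines lay close together and the *Nf1*/*p53* dKO lines lay lower and further apart, and neither gene's lines overlapped.

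*Dnajb11* (ERdj3), which is also secreted with its substrates, was at 105, 145 and 66.7 CPM against 178, 209 and 190 (log2 fold change 0.86 ± 0.28, adjusted p = 0.144). *Dnajc10* (ERdj5), a J protein that reduces disulfide bonds, was at 219, 202 and 159 CPM against 308, 302 and 267 (0.60 ± 0.17, adjusted p = 0.106). Line 3 of *Nf1*/*p53* dKO was the lowest of the 6 for both, as it was for 7 of the 13 ER members and for 3874 of all 15207 genes tested. The 3 ER members with the lowest log2 fold changes were *Hspa13* and a pair of J proteins of the ER membrane. *Dnajb14*, whose J domain faces the cytosol, was at 26.2, 25.8 and 25.0 CPM against 25.4, 22.4 and 27.3 (-0.03 ± 0.15), and *Dnajc16* was at 22.2, 21.5 and 27.5 against 25.8, 28.2 and 23.9 (0.13 ± 0.17).

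Whether the ER result rests on 1 line was examined by leaving out each in turn. The ER members higher in *Nf1*/*Cdkn2a* dKO were then 11 to 13 of 13, and their median was 0.28 without line 3 of *Nf1*/*Cdkn2a* dKO and 0.48 to 0.61 without any other line. The count with an unadjusted p under 0.05 was 4 to 6, and none had an adjusted p under 0.05. With all 18 cultures entered as separate samples, which treats cultures of a tumor as independent, 9 of the 13 ER members were called by edgeR. With the line as a random effect in limma-voom 7 were. Calls were more common over all genes in these fits than in the main comparison. The share of all genes tested was not worked out for them, so these counts are not set against a background. Of 37 cytosolic and 10 mitochondrial members, edgeR called 13 and 5 and limma-voom 5 and 2. The counts over all genes are given in the closing section.

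**Figure D3:**
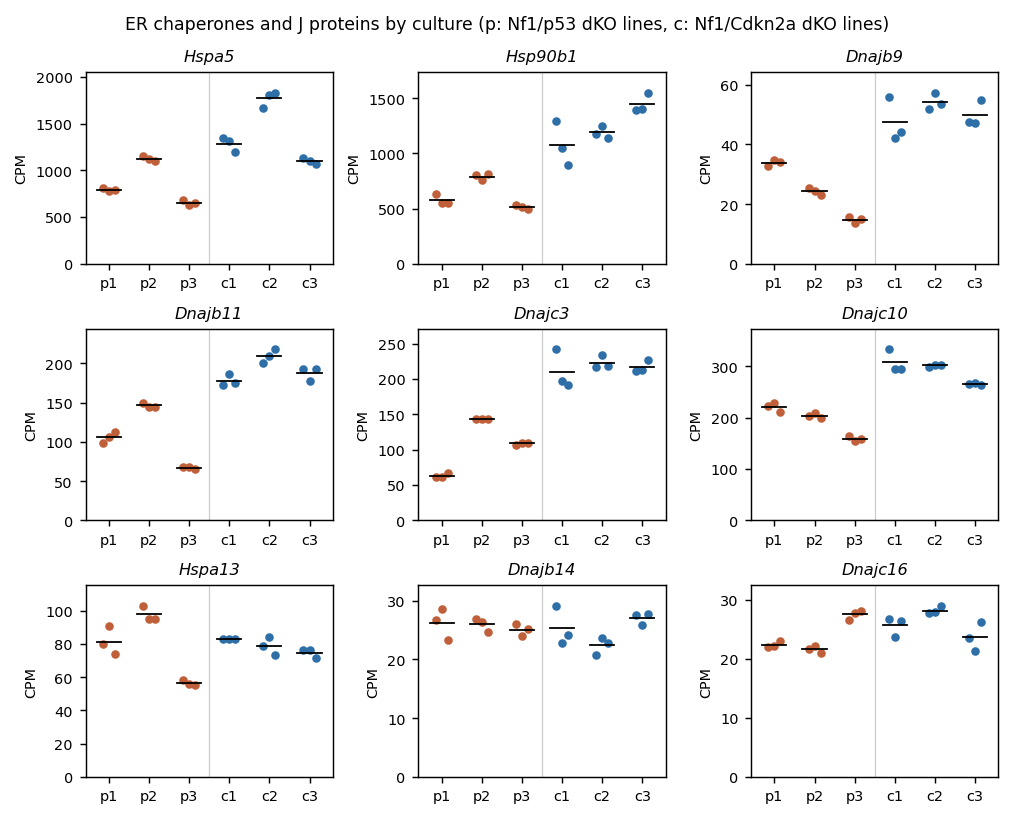
CPM (y axis, from 0) of 9 ER members in each culture (points, 3 per line) with the mean of each line (bar), for *Nf1*/*p53* dKO lines p1 to p3 and *Nf1*/*Cdkn2a* dKO lines c1 to c3. *Hsp90b1*, *Dnajb9*, *Dnajb11*, *Dnajc3* and *Dnajc10* sit higher in every c line than in any p line, *Hspa5* meets at 1110 CPM, and *Hspa13*, *Dnajb14* and *Dnajc16* overlap.

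The other ER proteins that work with these members, a list of 13 that holds exchange factors, lectin chaperones and disulfide isomerases, were all higher in *Nf1*/*Cdkn2a* dKO, with a median of 0.65 and 13 of 13 higher with raw totals as well. Lines did not overlap for 9 of them (69.2%), against 31.4% of all genes, and none was called. *Sdf2l1*, a partner of *Dnajb11*, stood highest at 15.9, 21.5 and 7.64 CPM against 34.9, 46.6 and 32.0 (log2 fold change 1.33 ± 0.39, adjusted p = 0.115). *Sil1*, the nucleotide exchange factor of BiP, stood lowest at 21.1, 21.2 and 17.0 CPM against 19.8, 18.8 and 28.5 (0.18 ± 0.22, adjusted p = 0.671).

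All genes that hold the ER stress response element in a window were then counted. Of 37 such genes 20 were tested, and 17 of them were higher in *Nf1*/*Cdkn2a* dKO, beside 7332 of all 15207 genes tested. Their median log2 fold change was 0.77, beside -0.02 over all genes. The 13 of them that are neither members nor on any list used here had 10 higher and a median of 0.83, with 1 called, against 1.8% of all genes. Genes with a run of 3 heat shock units had 28 of 62 higher and a median of -0.04. The part of either element in these differences was not tested.

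In the cytosol, the constitutive chaperones were the most abundant members with a small difference between genotypes. Per length of exon (RPKM over the 6 lines), *Hsp90ab1* was highest with a mean of 1160, before *Hspa8* with 510 and *Hsp90aa1* with 408, and the first ER member, *Hspa5*, was at 264. *Hsp90ab1*, the constitutive HSP90, was at 3570, 3710 and 3650 CPM against 3560, 3620 and 2780, so that line 3 of *Nf1*/*Cdkn2a* dKO stood alone below the rest. Its log2 fold change was -0.13 ± 0.16 with a 95% interval of -0.51 to 0.25.

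*Hspa8* (HSC70), the constitutive HSP70, was at 2050, 2310 and 1590 CPM against 2580, 2540 and 2100 (log2 fold change 0.28 ± 0.19, adjusted p = 0.426). *Hsp90aa1*, the inducible HSP90, was at 1810, 1650 and 919 CPM against 1870, 1790 and 1570 (0.26 ± 0.27, adjusted p = 0.603). For both genes line 3 of *Nf1*/*p53* dKO was the low one and the others overlapped. Of the 100-base windows 38.0% of *Hsp90aa1* and 28.2% of *Hspa8* are also found in copies elsewhere, which makes the counts of both uncertain. There were 0.252 counts of *Hsp90aa1* per count of *Hsp90ab1* in that line and 0.444 to 0.567 in the other 5.

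The genes most strongly induced by heat overlapped between the genotypes. *Hspa1a* and *Hspa1b*, a pair of near-identical inducible HSP70 genes, share 48.6 and 49.9% of their 100-base windows with other genes, so the counts of each are uncertain. Their sum was 91.2, 82.4 and 86.4 CPM in *Nf1*/*p53* dKO and 146, 47.6 and 165 in *Nf1*/*Cdkn2a* dKO. Most of it was assigned to *Hspa1b*, at 86.4, 77.6 and 83.1 CPM against 142, 44.4 and 157 (log2 fold change 0.47 ± 0.43, adjusted p = 0.558), and *Hspa1a* was at 3.20 to 8.51 CPM (0.27 ± 0.45). The *Nf1*/*p53* dKO lines agreed within 1.11-fold for *Hspa1b*, while those of *Nf1*/*Cdkn2a* dKO spanned 3.53-fold, with 2 lines above and 1 below all of the others.

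*Dnajb1* (HSP40), the inducible J partner of these proteins, was at 81.8, 61.8 and 135 CPM against 76.0, 71.2 and 59.5 (log2 fold change -0.43 ± 0.29, adjusted p = 0.431). It was highest in line 3 of *Nf1*/*p53* dKO, the line in which *Hspa8* and *Hsp90aa1* were lowest. *Hsph1* (HSP110), the exchange factor of HSP70, was at 251, 326 and 312 CPM against 313, 299 and 291 (0.02 ± 0.15), and *Dnaja1* at 293, 266 and 282 against 272, 279 and 290 (-0.00 ± 0.12), the narrowest range of any member named here at 1.1-fold. *Hspb1* (HSP27; HSP25 in the mouse) was at 38.3, 90.2 and 71.9 CPM against 66.2, 92.8 and 36.5 (-0.04 ± 0.42), and 44.0% of its windows are shared with the pseudogene *Hsp25-ps1*.

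The 19 genes of an HSF1 target list had 12 higher and 7 lower in *Nf1*/*Cdkn2a* dKO with a median of 0.17 (0.04 with raw totals), and none was called. Of the 12 that are members, none had lines that did not overlap or an unadjusted p under 0.05. Of the 7 that are not members, 3 (42.9%) had both, against 31.4% of all genes without overlap and 22.4% at that p. These were *Bag3*, *Chordc1* and *Stip1*, named after their values were seen, with log2 fold changes of 0.47 ± 0.13, 0.35 ± 0.14 and 0.46 ± 0.16 (adjusted p = 0.113, 0.2 and 0.167). *Hsf1* itself was at 94.4, 81.0 and 91.9 CPM against 72.5, 56.1 and 54.2 (log2 fold change -0.55 ± 0.16, adjusted p = 0.117), without overlap between the genotypes.

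The called member was *Hspa12b*, a distant HSP70 relative known from endothelial cells. It lies on chromosome 2 (131127280 to 131146321, plus strand, GRCm38). It was at 20.5, 17.3 and 24.0 CPM in *Nf1*/*p53* dKO and fell to 8.44, 6.69 and 5.21 in *Nf1*/*Cdkn2a* dKO, 3.04-fold lower (log2 fold change -1.60 ± 0.26, adjusted p = 0.0465). The 9 cultures of *Nf1*/*p53* dKO were all above the 9 of *Nf1*/*Cdkn2a* dKO, the lowest at 15.9 against the highest at 9.90 CPM. The call was lost when any of the 6 lines was left out, with adjusted p of 0.0763 to 0.141, while its sign held.

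The 4 endothelial markers went in different directions. *Tek* was called lower in *Nf1*/*Cdkn2a* dKO (log2 fold change -3.23 ± 0.55, adjusted p = 0.0465) at 0.412, 0.566 and 1.08 CPM against 0.0642 to 0.0782. *Pecam1*, at 0.425, 0.382 and 0.595 CPM against 0.257, 0.173 and 0.141 (-1.29 ± 0.45, adjusted p = 0.162), also had the lower values in *Nf1*/*Cdkn2a* dKO. *Cdh5* went the other way, at 0.387, 0.41 and 0.166 CPM against 0.882, 1.69 and 0.375 with overlap (1.61 ± 0.67, adjusted p = 0.221), and *Kdr* was at or under 0.665 CPM and not tested. The part of such cells in the difference of *Hspa12b* was not tested. Its paralog *Hspa12a*, on chromosome 19 and overlapped by Eno4 on the other strand, was at 19.3, 28.7 and 26.6 CPM against 11.5, 5.70 and 5.24 (-1.73 ± 0.37, adjusted p = 0.065). The lines did not overlap for this gene either, and line 1 of *Nf1*/*Cdkn2a* dKO was nearest to the other genotype.

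*Hspb2*, a small heat shock protein gene first known from muscle, had the largest log2 fold change of any tested member. It was at 16.7, 7.50 and 21.7 CPM in *Nf1*/*p53* dKO and at 3.38, 1.28 and 2.86 in *Nf1*/*Cdkn2a* dKO (log2 fold change -2.61 ± 0.54, adjusted p = 0.0616), with no overlap. It overlaps *Cryab* on the opposite strand, a small heat shock protein gene named after its values were seen. *Cryab* was at 202, 107 and 58.3 CPM against 371, 164 and 145 (0.89 ± 0.54, adjusted p = 0.378), with overlap between the genotypes. The strand setting of the counts is not given, so the counts of both genes are uncertain.

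Of 4 muscle progenitor markers 1 was called, lower in *Nf1*/*Cdkn2a* dKO. The 4 (*Myf5*, *Myod1*, *Pax7* and *Des*) summed to 51.4, 25.8 and 318 CPM in *Nf1*/*p53* dKO and to at most 0.529 in *Nf1*/*Cdkn2a* dKO. *Myf5*, which specifies muscle precursors, was called, at 24.2 CPM or more in every *Nf1*/*p53* dKO line against 0, 0 and 0.0156 (adjusted p = 0.00672). *Myod1*, at 1.75, 0.269 and 204 CPM against 0 in each line, and *Des*, at 21.6, 1.30 and 86.6 CPM against at most 0.529, did not pass (adjusted p = 0.172 and 0.0871), and line 3 of *Nf1*/*p53* dKO held most of both. *Pax7* had 3 counts in all and was not tested. Their part in the difference of *Hspb2* was not tested.

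The other small heat shock proteins varied widely between lines. The 6 tested, *Hspb2* among them, had a median range of 8.94-fold over the 6 lines, beside 2.17-fold over all genes tested. The widest was that of *Hspb7*, 44.7-fold with its lowest line at 0.0721 CPM, and the narrowest that of *Hspb1*, 2.54-fold. The range of *Hspb2*, 16.9-fold, includes its difference between the genotypes. *Hspb8*, a partner of BAG3 in autophagy of misfolded proteins, was at 68.0, 88.1 and 74.0 CPM against 6.83, 91.6 and 61.7, so a single *Nf1*/*Cdkn2a* dKO line stood 13.4-fold below the highest of its genotype (adjusted p = 2.95e-20 between these lines by the quasi-likelihood test). *Hspb6* (HSP20) was at 40.9, 40.3 and 30.2 CPM against 31.2, 14.7 and 65.9. Both were named after their values were seen. *Hspb7* and *Hspb9* stayed at or under 3.22 CPM, and *Hspb3* had at most 11 counts in any line.

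Among the cytosolic J proteins 21 were tested, of which 7 were higher and 14 lower in *Nf1*/*Cdkn2a* dKO. *Dnajb2*, which delivers ubiquitinated clients of HSP70 to the proteasome, had the highest log2 fold change of the cytosolic members, 0.73 ± 0.25 (adjusted p = 0.155), at 31.6, 31.9 and 20.5 CPM against 38.3, 43.1 and 58.0, without overlap. *Dnajc12*, a cochaperone of aromatic amino acid hydroxylases, was at 4.55, 4.31 and 4.21 CPM against 4.48, 3.82 and 11.6 (0.60 ± 0.46), which only line 3 of *Nf1*/*Cdkn2a* dKO set apart. The testis J protein gene *Dnajb8* had no count, and *Dnajb7*, *Dnajc5b*, *Dnajc5g* and *Dnajc6* had at most 13 counts in any line, too few to test. The unassigned *Dnajc22* had at most 77 and was not tested either. Beyond those named, *Hspa4*, an HSP110 of the cytosol, *Hspa14* of the ribosome and *Dnajc2*, its ribosomal J partner, had no overlap between the genotypes, with log2 fold changes of 0.33 ± 0.16, -0.31 ± 0.14 and -0.44 ± 0.19. The identifier listed as *Hspa14* is named Gm45902 in GENCODE M21. These 3 were named after their values were seen, and their adjusted p values were 0.282, 0.248 and 0.234.

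**Figure D4:**
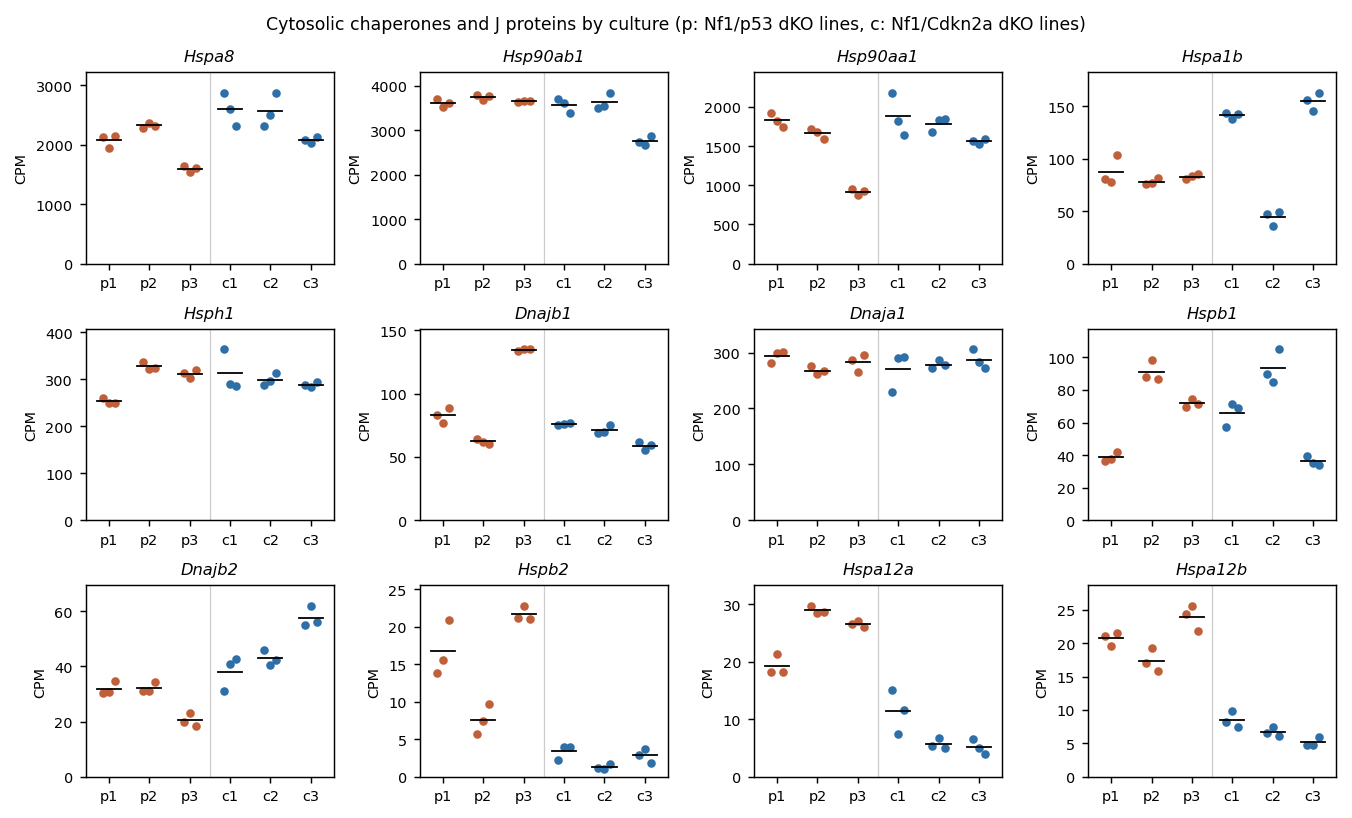
CPM (y axis, from 0) of 12 cytosolic members in each culture (points) with line means (bars), *Nf1*/*p53* dKO lines p1 to p3 and *Nf1*/*Cdkn2a* dKO lines c1 to c3. *Hspb2*, *Hspa12a* and *Hspa12b* are lower in every c line, *Dnajb2* is higher, and the major heat shock genes overlap.

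The cochaperones of HSP70 and HSP90 that are not members, a list of 19, had 13 higher and 6 lower in *Nf1*/*Cdkn2a* dKO with a median of 0.24 (0.11 with raw totals, 11 higher). Lines did not overlap for 9 of them (47.4%), against 31.4% of all genes, and none was called, against 1.8% of all genes. Among these 9 are *Bag3*, *Chordc1* and *Stip1*, which the HSF1 target list also holds, so the counts of the lists are not separate. *Bag2*, an exchange factor that restrains the ubiquitin ligase CHIP, stood highest at 71.2, 69.4 and 29.8 CPM against 106, 107 and 159 (log2 fold change 1.13 ± 0.36, adjusted p = 0.14). *Ppid*, the cyclophilin bound to HSP90, stood lowest at 247, 412 and 251 CPM against 160, 180 and 112 (-1.01 ± 0.28, adjusted p = 0.105). The 8 subunits of the CCT chaperonin, the cytosolic folding chamber for actin and tubulin, split 4 and 4, from *Cct2* at 0.26 ± 0.14 to *Cct3* at -0.70 ± 0.19 on the log2 scale (adjusted p = 0.333 and 0.106).

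In mitochondria, *Hspa9* (mortalin) is the HSP70 that pulls in and folds imported proteins. It was at 886, 904 and 1120 CPM against 682, 786 and 700, with all *Nf1*/*Cdkn2a* dKO lines below the other genotype (log2 fold change -0.42 ± 0.16, adjusted p = 0.181). The chaperonin genes *Hspd1* (HSP60) and *Hspe1* (HSP10), which hold the same heat shock element in a window of each, overlapped between the genotypes. *Hspd1* was at 1070, 1180 and 661 CPM against 1120, 1220 and 864 (0.14 ± 0.26), and *Hspe1* at 188, 233 and 143 against 243, 243 and 195 (0.27 ± 0.21). Copies elsewhere hold 23.4% of the windows of *Hspd1* and 10.0% of those of *Hspe1*. In each genotype line 3 was the lowest for both genes, and the counts of *Hspd1* per count of *Hspe1* were 4.44 to 5.67 over the 6 lines.

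The mitochondrial J proteins went in either direction. *Dnajc19*, a protein of the import motor at the inner membrane, was at 22.7, 39.5 and 28.4 CPM against 18.7, 16.0 and 16.7, without overlap (log2 fold change -0.82 ± 0.24, adjusted p = 0.115), and it overlaps *Fxr1* on the opposite strand. *Dnajc15*, the related motor protein, was at 8.17, 15.7 and 38.2 CPM against 14.3, 18.3 and 12.9 (-0.45 ± 0.54), and had the widest range of the mitochondrial members over the 6 lines, 4.68-fold, with its top in line 3 of *Nf1*/*p53* dKO. *Dnaja3* (TID1), the main J partner of mortalin, was at 70.5, 68.6 and 51.8 CPM against 64.5, 64.6 and 61.8 (-0.00 ± 0.16).

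Of the less abundant mitochondrial J proteins, *Dnajc4* was at 7.71, 8.64 and 10.3 CPM against 13.6, 10.7 and 16.7, without overlap (log2 fold change 0.62 ± 0.25, adjusted p = 0.212). *Dnajc30* was at 2.31, 2.77 and 3.83 CPM against 4.06, 3.46 and 4.90 (0.48 ± 0.33), and *Dnajc28* at 2.38, 1.77 and 1.98 against 0.786, 0.764 and 1.64 (-0.94 ± 0.43, adjusted p = 0.259). The mitochondrial partners, a list of 10 with the exchange factors of mortalin and the matrix proteases, had 3 higher and 7 lower and none called, from the HSP90 gene *Trap1* (0.18 ± 0.22, adjusted p = 0.66) to the protease gene *Lonp1*, at 194, 173 and 186 CPM against 131, 125 and 121 (-0.56 ± 0.12, adjusted p = 0.0696).

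**Figure D5:**
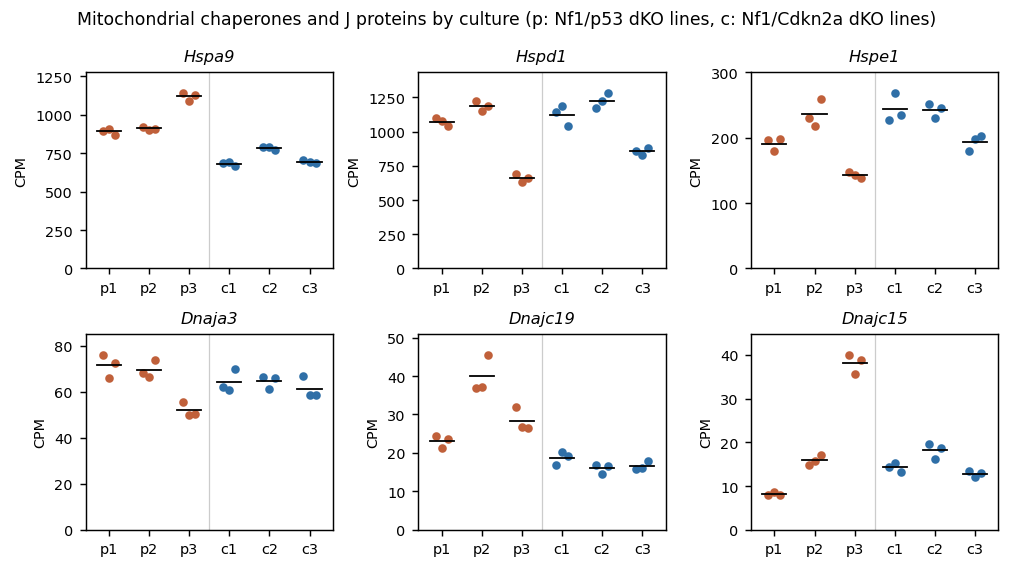
CPM (y axis, from 0) of 6 mitochondrial members in each culture (points) with line means (bars), *Nf1*/*p53* dKO lines p1 to p3 and *Nf1*/*Cdkn2a* dKO lines c1 to c3. *Hspa9* and *Dnajc19* are lower in every c line, *Hspd1* and *Hspe1* are lowest in line 3 of each genotype, and *Dnajc15* stands high in p3.

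Differences between lines of a genotype were common. Beyond the spread between cultures, 52 of the 67 members tested (77.6%) differed between the *Nf1*/*p53* dKO lines, against 73.2% of all genes, and 47 (70.1%) between the *Nf1*/*Cdkn2a* dKO lines, against 56.8% of all genes. Among ER members there were 9 in each genotype, among the cytosolic ones 31 and 29, and among the mitochondrial ones 9 and 7. For the tested members the median share of variance that lay between lines of a genotype was 73.5%. Line 3 of *Nf1*/*p53* dKO was the highest of the 6 for 17 members and the lowest for 20, and line 1 of *Nf1*/*Cdkn2a* dKO, the least extreme, was the highest for 6 and the lowest for 4. The order was alike over all 15207 genes tested, of which the first of these lines was the highest for 3933 and the lowest for 3874, and the other for 1403 and 1746.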

How the data were processed

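RNA-seq counts of 18 libraries were analysed, from 3 cultures of each of 6 cell lines. The authors deposited raw counts for 35275 mouse genes, which are whole reads and were not normalized. The submitters' processing notes name CASAVA, STAR 2.5, DESeq2 1.14.1 and the builds GRCm38 and mm10. The counting tool and its strand setting are not given in the sources used here, so genes that overlap on opposite strands and genes with near-identical copies are given as uncertain. All 73 members were found in GENCODE M21 (GRCm38), which gave positions and exon lengths.

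The counts of the 3 cultures of a line were summed, because they share a tumor, and 3 lines were compared with 3. Genes were kept by filterByExpr (minimum count 10, minimum total count 15), scaled by TMM and compared with the quasi-likelihood test of edgeR 4.0.16 in R 4.3.3, with Benjamini-Hochberg adjustment over 15207 genes. Differences between lines of a genotype were tested in 1 fit of the 18 cultures with a mean per line, which measures only the spread between cultures of 1 tumor. RPKM is the CPM divided by the summed exon length in kilobases. Shared windows are runs of 100 bases found in transcripts of another gene. The share of variance between lines used log2(CPM + 0.5). Totals were 19560535 to 28312207 counts per library and TMM factors 0.941 to 1.06 per line. The fold range of a gene over lines was left blank where its lowest line had 3 counts or fewer. Cultures of the same line were not repeats of each other in counts (chi-square per degree of freedom 3.57 to 29.2 over 18 pairs).

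The members, compartments, lists and rules were chosen with earlier results of these data known, so no count of a list is independent support. Named are the called members, 18 canonical members, the 3 highest and 3 lowest log2 fold changes and the widest range over lines in each compartment, members without overlap between the genotypes at an unadjusted p under 0.02, *Hsf1*, and the extremes of the partner lists. Alternatives were edgeR or DESeq2 1.42.0 on the 18 cultures, DESeq2 or its size factors on the 6 lines, limma-voom (limma 3.58.1) on the cultures with a random effect of line, raw totals, no filter, a filter in every line, a block for the line or culture number, and leaving out each line or, for differences between lines of a genotype only, each culture number. The steps were tested on simulated counts. Promoters came from RefSeq (GRCm38.p6) and plots from matplotlib 3.10.9. The value of 1 marker gene is not reported here.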

Additional observations from a re-analysis of the deposited data

Results flagged for a closer look

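Over the 9 cultures of a genotype, 64 sets of values of the named members were examined for a culture that stood apart from the rest by Dixon's ratio of its gap to the range, and 4 had one. Chance gives about 1 in 20 such sets where the 9 values are independent, and here they are 3 cultures of each of 3 lines that differ for most members. *Hspa1b* was at 104 CPM in culture 3 of *Nf1*/*p53* dKO line 1, with the next of the 9 at 85.5. The other 3 all concern culture 1 of *Nf1*/*Cdkn2a* dKO line 1: *Hsph1* was highest there at 364 CPM (next 314), *Hsp90aa1* highest at 2180 CPM (next 1850), and *Dnaja1* lowest at 229 CPM (next 272). The same culture was also the highest of its line for *Hspa8* at 2870 CPM and for *Hsp90b1* at 1290 CPM. Its values enter the sum of its line. Without that line the log2 fold change between the genotypes was 0.21 for *Hsp90aa1*, 1.10 for *Hsp90b1*, 0.00 for *Hsph1* and 0.03 for *Dnaja1*. None of these genes was called with that line or without it.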

How the results depend on the processing

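The genotype calls depend on what is taken as a replicate. Against 274 genes and 1 member in the main comparison, the 18 cultures as separate samples gave 7186 genes and 29 members with DESeq2 and 6096 and 28 with edgeR, a random effect of line in limma-voom 2173 and 14, and DESeq2 on the 6 lines 2060 and 6 (*Hspa12b*, *Hspa12a*, *Hspb2*, *Hsp90b1*, *Dnajb9* and *Dnajc3*). Raw library totals gave 423 genes, 86 higher and 337 lower in *Nf1*/*Cdkn2a* dKO, against 97 and 177. Leaving out 1 line gave 0 to 172 genes and 0 members (11 to 15 members at an unadjusted p under 0.05), and the median log2 fold change of ER members was 0.28 to 0.61, lowest without line 3 of *Nf1*/*Cdkn2a* dKO. The line number as a replicate block gave 0 genes and 0 members by edgeR (2740 and 10 at an unadjusted p under 0.05; *Hspa12b* at -1.61, adjusted p = 0.133), and the culture number as a replicate block on the 18 cultures 5681 and 25. The labels give no pairing by these numbers. The deviations of same-numbered lines correlated at -0.13 to -0.0832, and those of same-numbered cultures across genotypes at -0.0955 to 0.147. In all, 0 of 6 lines and 7 of 18 cultures correlated best with their own number. These checks cannot settle whether the numbers pair anything, because deviations of 3 lines from their mean are not independent. Of 512 values of 32 named members under the alternatives, 444 kept their side of the threshold, 61 passed it, and 7, all of *Hspa12b*, no longer did. By rounded log2 fold changes, 13 uncalled values of 8 members had the opposite sign. *Dnaja1* and *Dnaja3*, which rounded to -0.00 in the main comparison, could not enter this count. The causes were not tested. Genes at a few counts, such as *Hspb3* and *Dnajc6*, are limited by depth.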
